A study of Mus musculus with 6 samples.

Results

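The calcium pumps of the sarcoplasmic reticulum and the proteins that set their activity were followed in mouse cardiomyocytes that lack the long non-coding RNA H19 and had worked against a raised pressure. The set comprised 9 genes, taken by their names in the array files: the pump genes Atp2a1, Atp2a2 and Atp2a3, the pump inhibitor Pln, the luminal protein Hrc, the phosphatase inhibitor Ppp1r1a, and the catalytic subunits Ppp1ca, Ppp1cb and Ppp1cc of protein phosphatase 1. They were represented by 13 of 55681 probes, out of 35527 gene names on the array. No measured value entered the choice of these genes by name, although earlier results of these data were known when they were listed.

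Each heartbeat ends when calcium is pumped back from the cytosol into the sarcoplasmic reticulum, the calcium store of the muscle cell. The pump (SERCA) is held back by unphosphorylated phospholamban, the product of Pln, and phosphorylation of phospholamban by protein kinase A or CaM kinase II lifts this brake. Protein phosphatase 1 removes the phosphate again, and inhibitor 1, the product of Ppp1r1a, restrains that phosphatase. A lowered ratio of pump to phospholamban and slowed calcium uptake are well known features of failing hearts.

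Adult H19 knockout mice were studied after transverse aortic constriction (TAC), an operation that narrows the aorta and loads the left ventricle, and set against wild-type littermates after the same operation. In both groups cardiomyocytes were isolated by retrograde perfusion 6 weeks after TAC, and total RNA was hybridised to 1-colour Agilent arrays, 3 per genotype. All animals had TAC, and unoperated hearts were not analysed here. The kind of knockout allele and the exact age are not given in the sources used here, and nothing in the labels ties an array to a single animal, so the p-values cover the variation among these 6 samples, which may be technical. Replicate 1 of each genotype shared slide 1, and the other replicates shared slide 2. Between 48.8% and 58.6% of spots on an array were well above background, none was saturated, and 3 arrays per genotype limit the precision of every value. H19 had a log2 signal of −5.67, −6.41 and −5.97 on the knockout arrays and of 1.69, 0.74 and 0.84 on the wild-type arrays by its brightest probe, and none of its 7 probes was well above background on any knockout array. All 8 ventricular cardiomyocyte markers of the list used were well above background on enough arrays to be tested.

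The probes of the fast-twitch pump gene Atp2a1 and the cardiac pump gene Atp2a2 that lie in coding sequence are shown here, because a comparison of these transcripts turns on them. The Atp2a1 probe is 60 bases long and lies at chr7:133591703-133591762 on the minus strand of mm9. The Atp2a2 probe is listed in the files for both coding transcripts of the gene and lies at chr5:122910660-122910719, also on the minus strand.
Atp2a1 probe: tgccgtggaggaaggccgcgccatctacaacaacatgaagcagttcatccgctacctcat
Atp2a2 shared coding probe: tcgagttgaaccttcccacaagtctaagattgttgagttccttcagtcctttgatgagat

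None of the 8 members that could be tested passed the test for a difference between H19 knockout and wild-type cardiomyocytes. Atp2a2, Pln and Hrc, the genes of the cardiac uptake machinery, had log2 differences of −0.04, 0.08 and −0.01. By their brightest probes the 95% confidence intervals reached from 0.74-fold to 1.42-fold, and changes beyond that range lie outside the intervals of these 3 probes. The shared coding probe of Atp2a2 had a wider interval than the brightest one, at a log2 difference of −0.46 to 0.55. Ppp1r1a was well above background on 0 of the 6 arrays and was not tested. Values below are log2 signals minus that of the array's 75th percentile, differences are knockout minus wild type, and a probe entered the test if it was well above background on at least 3 arrays. A gene was represented by its brightest probe, and the test was limma with Benjamini-Hochberg adjustment over all genes. In bulk RNA of this kind, fewer cells of a type and less RNA per cell cannot be told apart.

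Of the 8 tested members, 0 passed an adjusted p of 0.05, where 0.0365% of the 21888 genes tested did (2 higher and 6 lower in knockout cardiomyocytes). At an unadjusted p under 0.05 the count was 0 of 8 members against 7.9% of all genes, and 0 of 8 had arrays of the genotypes that did not overlap, against 10.5% of all genes. The adjusted p-values of the members ran from 0.906 to 0.999. The members' median difference was 0.003, with 4 values above 0 and 4 below, while the median over all genes was −0.05 and 60.1% of genes were below 0. Scaling the arrays to the median of all probes moved the median of all genes by 0.42 and turned the signs of Atp2a2, Atp2a3, Hrc and Ppp1ca. Relative to the median of all genes the members ran from −0.30 for Atp2a3 to 0.16 for Ppp1cc. These relative values must be the same under either scaling, because each scaling subtracts a single constant from an array.

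**Figure D1:**
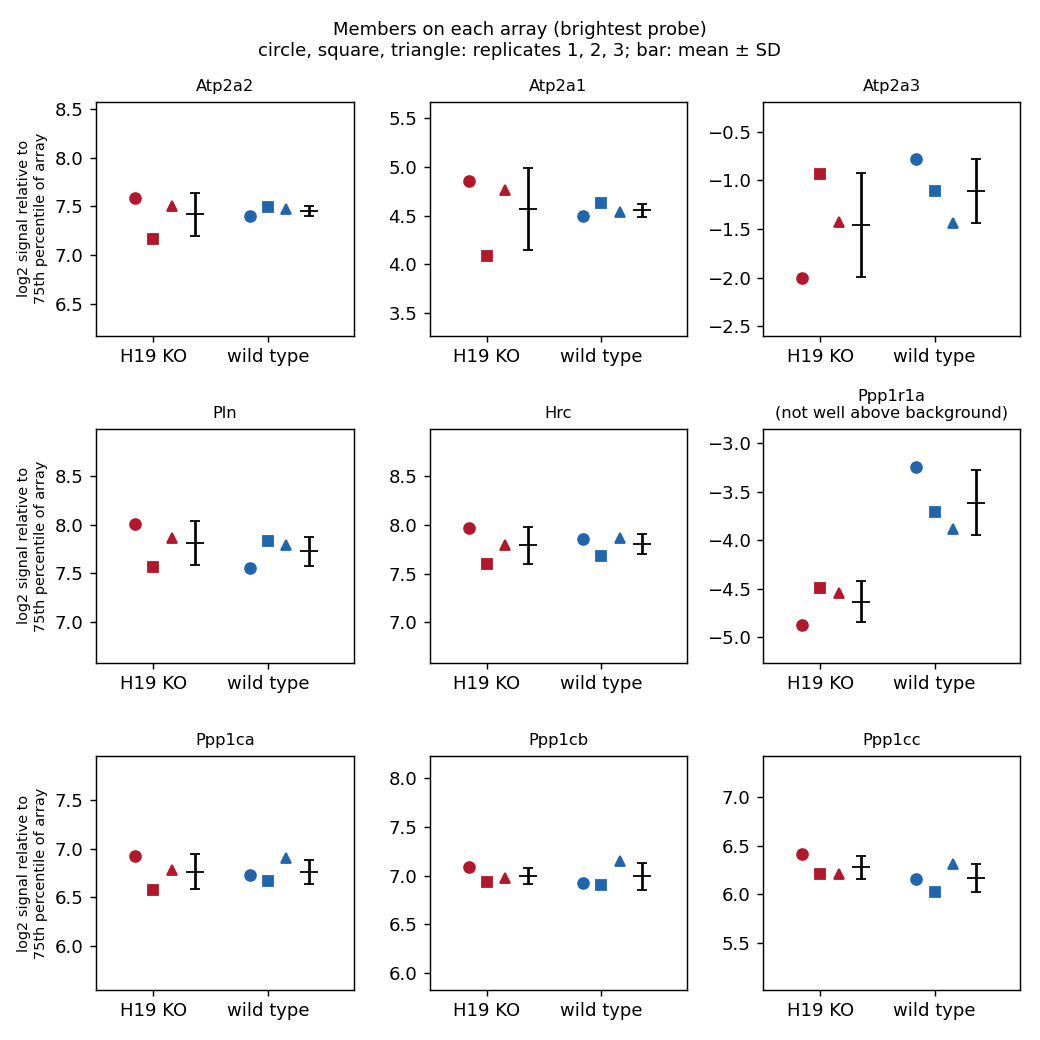
Log2 signal, with the 75th percentile of the array set to 0, for the brightest probe of each member, with the 3 H19 knockout arrays left of the 3 wild-type arrays and the mean ± SD beside them. Every panel spans the same number of log2 units. The genotypes overlap for the 8 tested members, and the Ppp1r1a panel shows values that are not well above background.

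Among the pumps, Atp2a2 encodes SERCA2, the pump of heart and slow muscle. Its brightest probe (chr5:122903704-122903763, mm9) read 7.58, 7.16 and 7.51 on the knockout arrays and 7.40, 7.50 and 7.47 on the wild-type arrays. The knockout arrays lay on both sides of the wild-type arrays, which stood close together. The mean was 7.42 ± 0.22 in knockout and 7.46 ± 0.05 in wild-type cardiomyocytes (SD, n = 3 each), a difference of −0.04 (SE 0.16, 95% confidence interval −0.43 to 0.35, limma adjusted p = 0.999). The shared coding probe read 5.88, 5.15 and 5.68 in knockout and 5.46, 5.60 and 5.52 in wild-type cardiomyocytes. Again the lowest and the highest arrays were knockout arrays, and the difference was 0.05 (SE 0.21). The 2 probes of the gene gave opposite signs, each difference being smaller than its error.

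Atp2a1 encodes SERCA1, known as the pump of fast skeletal muscle. Its probe was well above background on all 6 arrays and read 4.85, 4.08 and 4.77 in knockout and 4.50, 4.63 and 4.53 in wild-type cardiomyocytes. The knockout arrays spread widely around a tight wild-type group. The difference was 0.01 (SE 0.23, 95% confidence interval −0.53 to 0.55), with an SD of 0.42 in knockout and of 0.07 in wild-type cardiomyocytes.

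The Atp2a1 probe moved with the shared coding probe of Atp2a2 from array to array. The difference between these 2 log2 signals was −1.03, −1.07 and −0.91 on the knockout arrays and −0.96, −0.97 and −0.99 on the wild-type arrays. Its SD over the 6 arrays was 0.06, against an SD of 0.27 for Atp2a1 and 0.24 for the shared coding probe taken alone. Among the 55 pairs of tested member probes, 4 had a smaller SD of their difference, all of them between Ppp1cb and Ppp1cc probes or between probes of Ppp1cc. With the brightest Atp2a2 probe the SD of the difference from Atp2a1 was larger, at 0.13, which ranked 23 of the 55 pairs. Of the 9 markers of fast skeletal muscle only Tnnc2, Tnnt3 and Tnni2 passed the filter, while Myh1, Myh2, Myh4, Mylpf, Actn3 and Pvalb did not. Whether the Atp2a1 probe also binds Atp2a2 RNA was not tested.

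Atp2a3 encodes SERCA3, known from platelets, lymphocytes and endothelial cells. Its probe (chr11:72806289-72806348, mm9) was dim but well above background on all 6 arrays, at −2.01, −0.94 and −1.43 in knockout and −0.78, −1.11 and −1.44 in wild-type cardiomyocytes. Replicate 1 of the knockout was the lowest array and replicate 1 of the wild type the highest, with the others between. The mean was −1.46 ± 0.54 in knockout and −1.11 ± 0.33 in wild-type cardiomyocytes (SD, n = 3 each). The difference of −0.35 (SE 0.31, 95% confidence interval −1.07 to 0.37, limma adjusted p = 0.906) was the largest in size and the least precise among the members. It was −1.23 between the replicates on slide 1 and 0.09 between those on slide 2.

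The first knockout replicate, lowest for Atp2a3, was also low in markers of cells known to carry this pump, and in markers of other cells. Against each gene's mean over the 6 arrays, the 7 endothelial markers stood at −0.34, 0.40 and 0.19 in knockout and 0.22, −0.13 and −0.34 in wild-type cardiomyocytes. The 3 platelet markers that passed the filter stood at −0.52, −0.07 and −0.21 in knockout and 0.64, 0.12 and 0.04 in wild-type cardiomyocytes, with Ppbp and Gp9 not passing. The 3 lymphocyte markers that passed stood at −0.66, 0.37 and 0.57 in knockout and 0.47, −0.20 and −0.55 in wild-type cardiomyocytes. On the first knockout replicate the fibroblast, smooth muscle and macrophage markers stood at −0.35, −0.41 and −0.52, and the ventricular markers at 0.06. Its low values were thus not particular to cells known to carry the pump. The summed endothelial signal, in multiples of the 75th percentile, ranged from 53.9 to 83.1 in knockout and from 54.0 to 75.5 in wild-type cardiomyocytes. The summed platelet signal ranged from 4.82 to 9.65 in knockout and from 7.11 to 8.89 in wild-type cardiomyocytes. The summed lymphocyte signal ranged from 0.458 to 0.992 in knockout and from 0.566 to 0.933 in wild-type cardiomyocytes. The part of these cells in the Atp2a3 values was not tested.

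**Figure D2:**
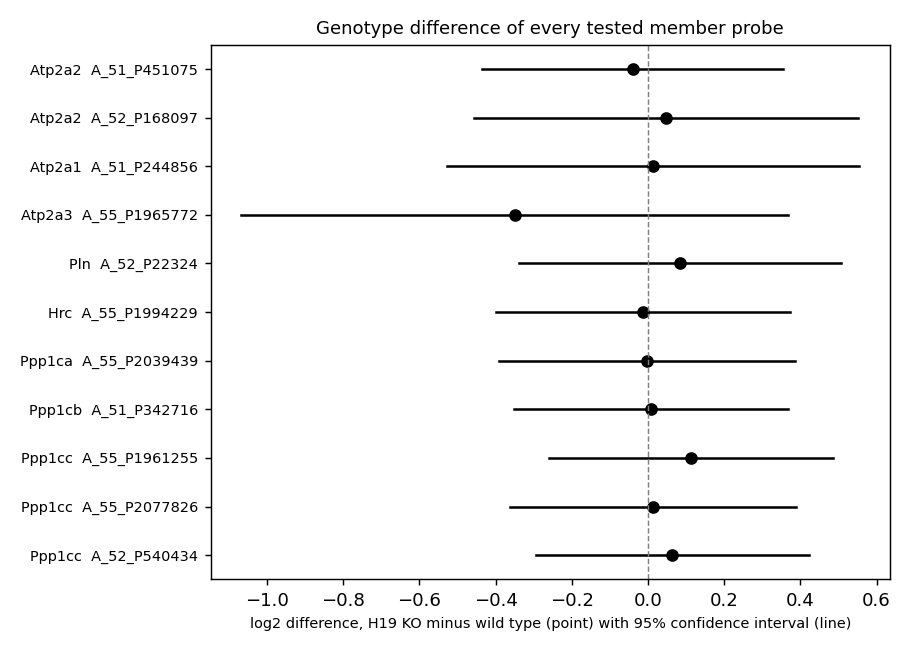
Log2 difference between H19 knockout and wild-type cardiomyocytes for the 11 member probes that passed the filter, as a point with its 95% confidence interval from limma. For Atp2a2 and Ppp1cc the brightest probe stands uppermost. Every interval spans 0, and that of Atp2a3 is the widest.

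Phospholamban, the product of Pln, is the main inhibitor of the cardiac pump. Its probe (chr10:53064944-53065003, mm9) read 8.01, 7.57 and 7.86 in knockout and 7.56, 7.84 and 7.79 in wild-type cardiomyocytes. The lowest wild-type and the lowest knockout array were nearly level, and the groups overlapped. The means were 7.81 ± 0.23 in knockout and 7.73 ± 0.15 in wild-type cardiomyocytes (SD, n = 3 each), and the difference was 0.08 (SE 0.18, 95% confidence interval −0.34 to 0.50, limma adjusted p = 0.999). It was 0.45 on slide 1 and −0.10 on slide 2, so the slides did not share a direction.

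Hrc encodes the histidine-rich calcium-binding protein, which lies in the lumen of the store and binds both calcium and the pump. It read 7.97, 7.60 and 7.80 in knockout and 7.86, 7.68 and 7.87 in wild-type cardiomyocytes (chr7:52594281-52594340, mm9). The wild-type arrays lay inside the range of the knockout arrays. The difference was −0.01 (SE 0.16, 95% confidence interval −0.39 to 0.37).

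Because pump and inhibitor act against each other, Pln was also set against Atp2a2 within each array, where any scaling of the array cancels. With the brightest Atp2a2 probe, the log2 difference of Pln and Atp2a2 was 0.43, 0.40 and 0.36 on the knockout arrays and 0.16, 0.34 and 0.32 on the wild-type arrays. All knockout arrays lay above all wild-type arrays, the closest pair being 0.36 and 0.34. The mean was 0.40 ± 0.04 in knockout and 0.27 ± 0.10 in wild-type cardiomyocytes (SD, n = 3 each), a shift of 0.12 or 1.09-fold. The exact two-sided permutation test gave p = 0.1, the smallest value that 3 against 3 arrays allow, so it could not pass 0.05. The shift was 0.27 on slide 1 and 0.05 on slide 2.

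The shift did not hold with the other Atp2a2 probe. The files list the brightest probe for only 1 of the 2 coding transcripts and the shared coding probe for both, so the 2 values may concern different transcripts of the gene. Against the shared coding probe, the value was 2.13, 2.41 and 2.18 on the knockout arrays and 2.10, 2.24 and 2.27 on the wild-type arrays. These groups overlapped, and the shift was 0.04 (exact permutation p = 0.8). The 2 Atp2a2 probes were themselves 1.70, 2.01 and 1.82 apart in knockout and 1.94, 1.90 and 1.95 apart in wild-type cardiomyocytes, a shift of −0.09 (exact permutation p = 0.4). The absolute size of each such difference depends on the probes and gives no ratio of transcripts.

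**Figure D3:**
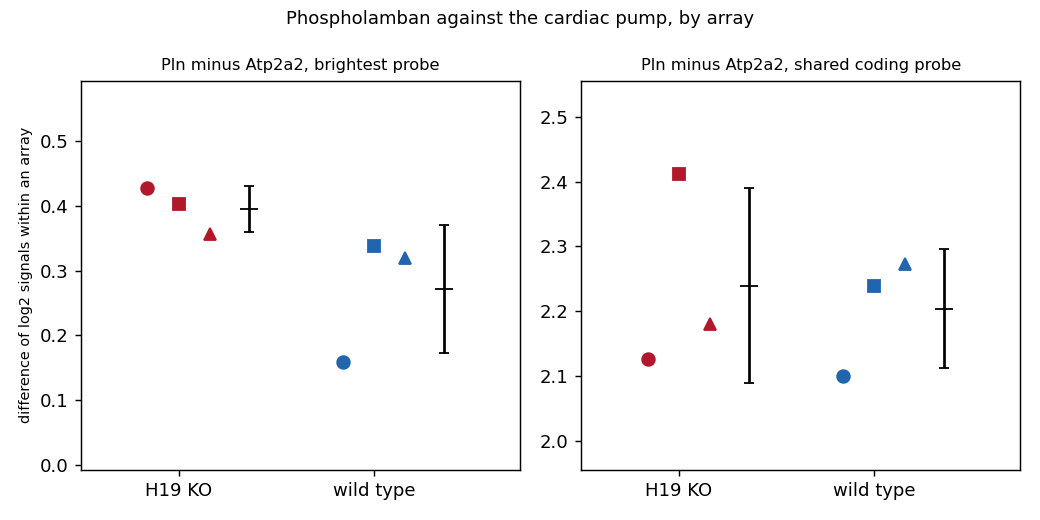
Difference of the Pln and Atp2a2 log2 signals within each array, with knockout arrays left of wild-type arrays, for the brightest Atp2a2 probe in the left panel and the shared coding probe in the right panel. Circles, squares and triangles are replicates 1, 2 and 3, and bars give the mean ± SD. The genotypes separate in the left panel, with a shift of 0.12, and overlap in the right panel, with a shift of 0.04.

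The catalytic subunits of protein phosphatase 1, which dephosphorylates phospholamban, varied little. Ppp1ca (chr19:4195360-4195419, mm9) read 6.93, 6.57 and 6.78 in knockout and 6.72, 6.66 and 6.90 in wild-type cardiomyocytes. Ppp1cb (chr5:32794896-32794955, mm9) read 7.09, 6.93 and 6.98 in knockout and 6.92, 6.90 and 7.16 in wild-type cardiomyocytes. Ppp1cc (chr5:122625222-122625278, mm9) read 6.42, 6.21 and 6.21 in knockout and 6.16, 6.02 and 6.31 in wild-type cardiomyocytes. In each of these 3 genes the genotypes overlapped. The differences were −0.002 for Ppp1ca (SE 0.16, 95% confidence interval −0.39 to 0.38), 0.008 for Ppp1cb (SE 0.15, −0.35 to 0.36) and 0.11 for Ppp1cc (SE 0.15, −0.25 to 0.48). The other 2 Ppp1cc probes gave 0.01 (SE 0.16) and 0.06 (SE 0.15). A second Ppp1cb probe was well above background on 1 knockout and 1 wild-type array and was not tested. RefSeq lists a further gene, Ppp1ccb, with Ppp1cc among its older names, and whether the Ppp1cc probes also bind its RNA was not tested.

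The subunits also moved together across arrays. The within-array difference between Ppp1cb and a dimmer Ppp1cc probe had an SD of 0.03 over the 6 arrays, the smallest of the 55 member pairs. With the brightest Ppp1cc probe it was 0.08, and between Ppp1ca and Ppp1cb 0.07. Each subunit varied little by itself, with SDs of 0.14, 0.10 and 0.13 for the brightest probes of Ppp1ca, Ppp1cb and Ppp1cc. The largest SD of a within-array difference was 0.66, for Atp2a3 against Atp2a1.

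Inhibitor 1, encoded by Ppp1r1a, keeps the phosphatase off phospholamban when it is phosphorylated by protein kinase A. Its single probe (chr15:103361073-103361132, mm9) gave background-subtracted intensities of 26.5, 41.3 and 31.9 in knockout and 67.4, 61.7 and 50.8 in wild-type cardiomyocytes. The knockout arrays were the lower ones, but no spot was well above background in either genotype, so no fold is given. Arrays that did not overlap were also found for 10.5% of the genes that passed the filter. With no filter on dim probes, the limma p of this probe was 0.0041 before adjustment and 0.571 after adjustment over 35427 genes. The median over all genes was then −0.17, against −0.05 with the filter. Of filtered genes with an unadjusted limma p under 0.05, 1496 were lower and 233 higher in knockout cardiomyocytes.

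Knockout replicates 1 and 2 lay on opposite sides of the other arrays for the members as a group. Replicate 2 of the knockout was the lowest knockout array for 7 of the 8 tested members and the lowest of all 6 arrays for 4 of them. Leaving Atp2a3 aside, the mean deviation of the other 7 members was 0.19, −0.20 and 0.05 on the knockout arrays and −0.06, −0.05 and 0.07 on the wild-type arrays. The 8 ventricular cardiomyocyte markers stood at 0.06, −0.19 and −0.01 in knockout and 0.003, 0.07 and 0.06 in wild-type cardiomyocytes. The 7 fibroblast markers stood at −0.35, 1.19 and 0.15 in knockout and 0.23, −0.40 and −0.82 in wild-type cardiomyocytes. The array with the lowest mean over these 7 members was thus the highest in fibroblast and the lowest in ventricular markers. This array, knockout replicate 2, was also the highest in endothelial (0.40), smooth muscle (0.64) and macrophage markers (0.52). Wild-type arrays came close for smooth muscle (0.62) and macrophage markers (0.51). In lymphocyte and platelet markers it was not the highest, so its high values were not particular to fibroblast markers. The summed fibroblast signal ranged from 170 to 381 in knockout and from 113 to 220 in wild-type cardiomyocytes, in multiples of the 75th percentile. The summed ventricular signal ranged from 2141 to 2412 in knockout and from 2477 to 2558 in wild-type cardiomyocytes, so all knockout arrays were lower in this sum. The brightest genes weigh most in it. Gene by gene 6 markers were lower and 2 higher, and by mean deviation knockout replicate 1 (0.06) stood above wild-type replicate 1 (0.003). For 3 of the 8 ventricular markers (Myh6, Tnnt2 and Myl3) the genotypes did not overlap, against 10.5% of all genes. None of the 8 had an unadjusted limma p under 0.05. The part of other cells in the members' values was not tested. Without knockout replicate 2, the differences of Atp2a2, Hrc and Ppp1ca were 0.09, 0.08 and 0.09, above 0 where they were below it with all 6 arrays. Without knockout replicate 1 they were −0.12, −0.11 and −0.085.

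**Figure D4:**
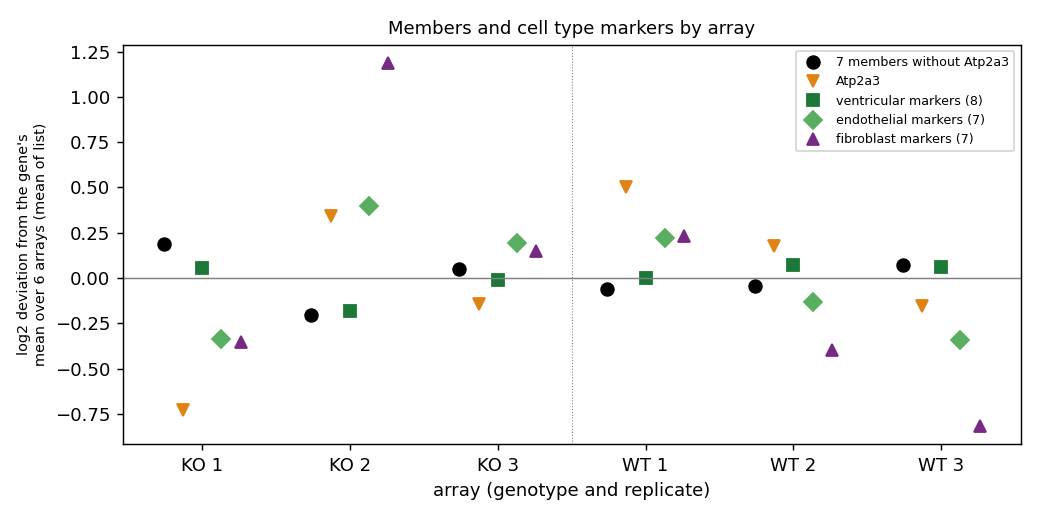
Mean log2 deviation from each gene's average over the 6 arrays, by array, for the 7 tested members other than Atp2a3, for Atp2a3, and for ventricular, endothelial and fibroblast markers. Knockout arrays are on the left and wild-type arrays on the right. Knockout replicate 2 is lowest for the 7 members (−0.20) and the ventricular markers (−0.19). It is highest for the fibroblast (1.19) and endothelial markers (0.40).

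Around the members, the other genes of calcium storage and of phospholamban phosphorylation were described from lists of known pathway genes. In none of these lists did a gene pass the adjusted threshold. Among the pump's other small regulators, sarcolipin, encoded by Sln and best known from atrium and slow muscle, read −0.16, −3.01 and −0.79 in knockout and 3.90, 4.36 and 2.24 in wild-type cardiomyocytes. All knockout arrays lay below all wild-type arrays, and the difference was −4.82 (SE 0.83, limma adjusted p = 0.51). The atrial myosin light chains Myl7 and Myl4, markers of atrial cardiomyocytes, had differences of −3.50 and −2.78 with arrays that did not overlap either. The atrial peptide gene Nppa had 0.04. Arrays did not overlap for 3 of the 4 atrial markers, Sln included, against 10.5% of all genes. Among the small regulators the count was 1 of 2 tested genes, Sln itself. The summed signal of the 4 atrial markers ranged from 309 to 364 in knockout and from 353 to 396 in wild-type cardiomyocytes. Nppa made up most of this sum, so it says little about Sln, Myl7 and Myl4. The mean log2 signal of Nppa was 8.37 in knockout and 8.33 in wild-type cardiomyocytes, against 2.15 and 4.92 for Myl4. The share of atrial cells was not tested. Myoregulin, encoded by Mrln and known from skeletal muscle, had a difference of −0.29 (SE 0.21) with overlapping arrays. Strit1, Erln and Arln, whose products also bind the pump, were not found under these names on the array and are not analysed here.

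Of 10 proteins that bind calcium in the store or bind the pump, 9 had differences above 0, with a median of 0.17 against −0.05 over all genes. Casq2, the cardiac calsequestrin that buffers calcium in the store, had 0.22 (SE 0.18), Calr, which encodes calreticulin, 0.26 (SE 0.20), and Casq1, the skeletal calsequestrin, 0.53 (SE 0.37). Hax1 (0.13) and S100a1 (−0.01), whose products bind phospholamban and the pump, and Srl (0.11), which encodes sarcalumenin, were closer to wild type. This median was 0.49 between the replicates of slide 1 and 0.02 between those of slide 2. Of 10 genes of calcium release and of the junction between store and surface membrane, 8 were above 0 (median 0.08, with 0.22 on slide 1 and −0.02 on slide 2), with 0.35 for Jph2, which encodes the junctional membrane anchor of the heart, and −0.03 for Ryr2, the release channel.

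On the phosphorylation side, 8 of 9 phospholamban kinase and anchor genes were above 0 (median 0.09), with a median of 0.41 on slide 1 and of −0.06 on slide 2, and of −0.02 without knockout replicate 1. Prkaca, the catalytic subunit of protein kinase A, had 0.26 (SE 0.21), Prkar2a, a regulatory subunit, 0.47 (SE 0.22), and Camk2d, the cardiac CaM kinase II, 0.07. Of the regulatory subunits and inhibitors of protein phosphatase 1, 29 of 31 were tested, and 15 were above 0 and 14 below (median 0.01). The 4 with the smallest p were Ppp1r15a (0.59, SE 0.21, limma adjusted p = 0.616), Ppp1r9b (0.48), Ppp1r3c (0.55) and Ppp1r37 (0.55). The largest difference in size in this list was that of Ppp1r1b, a gene named after its value was seen. It encodes DARPP-32, a relative of inhibitor 1, and had −0.72 (SE 0.36, limma adjusted p = 0.659) with overlapping arrays. Its signal was dim, at −3.26, −3.20 and −3.29 in knockout and −2.00, −2.21 and −3.40 in wild-type cardiomyocytes. The lowest signals well above background on the arrays ran from −4.30 to −3.20. Ppp1r15a encodes GADD34, a stress-induced partner of the phosphatase, and its knockout arrays, at 5.02, 4.91 and 5.07, lay above the wild-type arrays at 4.23, 4.17 and 4.81. Ppp1r2, which encodes inhibitor 2, had 0.11, and Hspb6, a small heat shock protein known to inhibit the phosphatase in heart, −0.10. The 4 catalytic genes of protein phosphatase 2A and calcineurin had differences from 0.02 to 0.14, with a median of 0.28 on slide 1 and of −0.07 on slide 2. Against the 10.5% of all genes with arrays that did not overlap, the count was 0 of 10, 1 of 10, 0 of 9, 2 of 29 and 0 of 4 genes in these 5 lists.

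**Figure D5:**
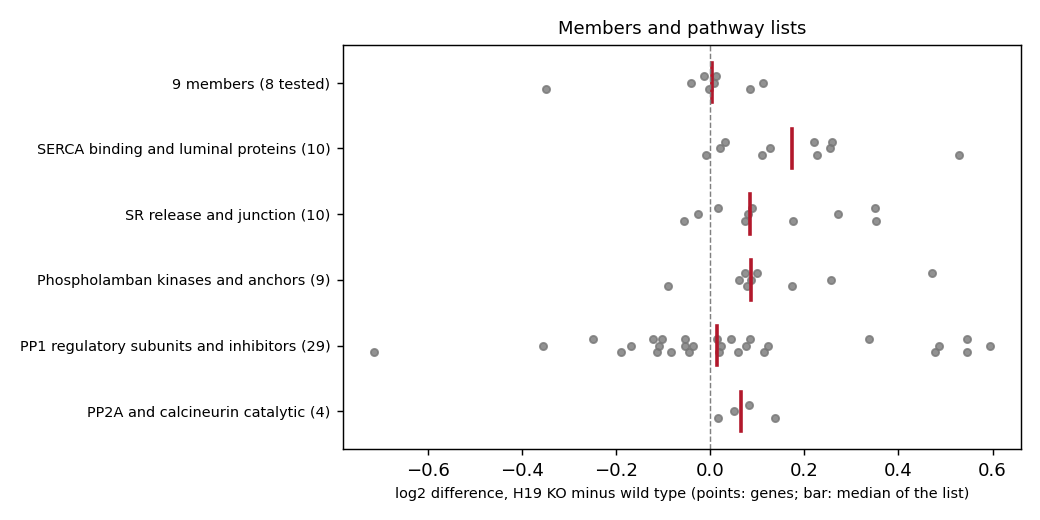
Log2 difference between H19 knockout and wild-type cardiomyocytes for each tested gene (points) of the member set and of 5 pathway lists, with each list's median as a bar and the number of tested genes in brackets. The list with Sln and Mrln is not drawn. The members lie around 0, and the list medians run from 0.01 to 0.17.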

How the data were processed

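Cardiomyocyte RNA after TAC was hybridised to 1-colour arrays, 3 for H19 knockout and 3 for wild type, per the labels' protocols. Per the file headers, Agilent Feature Extraction 10.7.3.1 gave each spot a background-subtracted intensity that is not normalized between arrays; coordinates are mm9. The authors' deposited value table holds a quantile-normalized intensity and served as an alternative. The log2 intensity minus the array's 75th percentile was used, these percentiles being 638 to 928. Control spots and outlier spots were left out, and spots of a probe were averaged. Probes well above background on at least 3 arrays were kept (29989), and the brightest represented its gene (21888 genes). Genotypes were compared with limma 3.58.1 in R 4.3.3, adjusting by Benjamini-Hochberg over all genes (threshold 0.05), after a test on simulated data. Within-array differences were compared with an exact permutation test. A RefSeq table supplied names only; accessions gave 26419 matches, symbols 3993 and synonyms 826. The members, lists and tests were chosen with earlier results of these data known. All members with every probe are named, then a fixed panel and up to 4 genes of each list by smallest p, of which the text names a part; 1 marker gene is not reported here.

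Alternatives were normexp (offset 50), quantiles, scaling to all probes' median or to the 75th percentile over spots, the deposited values, other filters and probe rules, a replicate or slide block, array weights, and leaving out each array. The percentile over spots and the shared coding probe of Atp2a2 for its difference from Pln, were chosen after seeing the data.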

Additional observations from a re-analysis of the deposited data

How the results depend on the processing

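None of the 147 tested values of members under alternatives passed the adjusted threshold of limma, the smallest adjusted p being 0.433 for Atp2a3. Signs turned in 31 member values, and in 7 of 16 values taken within a single slide. Quantile normalization gave −0.0125 for Atp2a1, 0.0029 for Hrc and −0.0072 for Ppp1cb, and the authors' deposited values gave −0.0151, 0.0092 and −0.0016 for the same genes. The 75th percentile over spots gave −0.0023 for Atp2a1 and −0.0074 for Ppp1cb, and normexp gave 0.030 for Ppp1ca. Scaling to the median of all probes gave 0.38 for Atp2a2, 0.071 for Atp2a3, 0.41 for Hrc and 0.42 for Ppp1ca, array weights gave 0.066 for Hrc and 0.076 for Ppp1ca, and Atp2a2 had 0.0038 with the mean of its probes and 0.048 with its shared coding probe. Leaving out 1 array at a time gave −0.13 to 0.26 for Atp2a1, −0.12 to 0.087 for Atp2a2, −0.61 to −0.07 for Atp2a3, −0.015 to 0.21 for Pln, −0.11 to 0.082 for Hrc, −0.085 to 0.093 for Ppp1ca, −0.038 to 0.090 for Ppp1cb and 0.04 to 0.19 for Ppp1cc. It gave medians of 0.07 to 0.27 for the proteins that bind the pump or calcium and of −0.02 to 0.22 for the kinases and anchors. The shift of Pln against Atp2a2 was 0.27 within slide 1 and 0.036 with the shared coding probe. Over all genes, 8 passed, against 3 with quantile normalization or the deposited values, 118 with median scaling, 14 with every probe tested, 1 with no filter, 1 with the slide block and 1 to 10 with 1 array left out. With the replicate block 1 gene passed, but same-numbered arrays did not deviate together (r of −0.22, −0.05 and 0.04), so the numbers were not taken as a pairing. The causes of these changes were not tested. Dim signal limits Ppp1r1a and Atp2a3 among the members, and dim list genes such as Ppp1r1b.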

Other observations

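Across the 6 arrays, the genes whose profile was most like that of Atp2a2 were Pcnt (r = 0.998), Dhrs11 (0.995) and Cpt2 (0.993) among 14070 named genes, and 317 genes had an r over 0.9. For Pln they were Atp6v0a2 (0.995), Rpl26-ps4 (0.992) and Dusp27 (0.990), with 482 genes over 0.9. These Pearson correlations are descriptions over arrays that share slide and scaling, and at 6 points high values are common.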
